A study of Mus musculus with 8 samples.

Results

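The nuclear genes of respiratory complex I were taken as every protein-coding mouse gene whose symbol starts with Nduf and whose counts, summed over the 8 libraries, reached 20. The rule gave 46 of the 31053 genes in the count table. Of these, 36 encode structural subunits of complex I, 8 (Ndufaf1 to Ndufaf8) encode assembly factors, and Ndufa4 and Ndufa4l2 carry the name without being counted as structural subunits today. All 46 passed the filter on low counts, and the table held 0 protein-coding Nduf genes under the minimum.

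BAT was profiled by bulk RNA-seq in 4 WT and 4 db/db mice, labelled as C57BL6/J in both groups and taken at 8 weeks of age. The db/db mice are homozygous for a mutation of the leptin receptor gene Lepr, overeat and become obese, and the labels name no other allele or agent. The study's methods name male mice, fasted before collection in both groups, and do not settle whether WT and db/db came from the same supplier, since their sections name different suppliers for WT. The mutation is present in every cell of the db/db mice and not in BAT alone. Lepr had 0 counts in all 8 libraries, where 3 counts correspond to 0.926 to 1.26 CPM (counts scaled to the library total), so it could not be used to check the genotype labels.

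Complex I (NADH:ubiquinone oxidoreductase) is the entry point of electrons from NADH into the respiratory chain. Its matrix arm oxidises NADH in the N module and passes the electrons through iron-sulfur clusters to ubiquinone in the Q module, and its membrane arm, built from the ND1, ND2, ND4 and ND5 modules, pumps protons. The core subunits carry out catalysis and are shared with bacteria, the supernumerary subunits surround them, and assembly factors join the modules or modify subunits without remaining in the finished enzyme. Brown adipocytes are packed with mitochondria, and the respiratory chain there burns fuel for heat through the uncoupling protein Ucp1.

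Promoters of the 4 lower subunits with the smallest p-values are shown because the results turn on these genes, with that of Ndufaf5, the one assembly factor that was called. Each is the RefSeq window of 300 bases on GRCm38.p6, from 250 bases before the start site to the first 50 transcribed bases, written on the strand of the gene. Capitals mark the letters of 4 searched motifs, on either strand. These were CGCATGC (NRF1-type), AAGGTCA (half-site of the estrogen-related receptors), CCGGAAG (ETS) and AAGATGG (YY1-type, whose letters include ATG).
Ndufaf5: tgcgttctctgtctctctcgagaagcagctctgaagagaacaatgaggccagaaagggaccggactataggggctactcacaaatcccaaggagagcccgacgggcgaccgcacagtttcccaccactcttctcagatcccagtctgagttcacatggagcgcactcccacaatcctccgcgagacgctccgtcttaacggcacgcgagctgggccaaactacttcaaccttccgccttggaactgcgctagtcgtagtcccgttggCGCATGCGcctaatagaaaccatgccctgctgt
Ndufa9: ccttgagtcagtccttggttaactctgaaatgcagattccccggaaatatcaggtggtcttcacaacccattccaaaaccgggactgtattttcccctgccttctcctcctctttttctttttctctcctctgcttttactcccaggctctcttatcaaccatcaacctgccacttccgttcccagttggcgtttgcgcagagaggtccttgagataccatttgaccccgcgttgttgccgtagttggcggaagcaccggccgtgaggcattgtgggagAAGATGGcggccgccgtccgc
Ndufs8: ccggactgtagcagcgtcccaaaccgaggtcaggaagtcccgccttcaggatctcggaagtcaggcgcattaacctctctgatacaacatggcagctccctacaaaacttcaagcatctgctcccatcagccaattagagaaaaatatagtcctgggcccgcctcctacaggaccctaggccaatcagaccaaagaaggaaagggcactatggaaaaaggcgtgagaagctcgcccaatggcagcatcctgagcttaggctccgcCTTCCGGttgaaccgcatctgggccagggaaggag
Ndufs4: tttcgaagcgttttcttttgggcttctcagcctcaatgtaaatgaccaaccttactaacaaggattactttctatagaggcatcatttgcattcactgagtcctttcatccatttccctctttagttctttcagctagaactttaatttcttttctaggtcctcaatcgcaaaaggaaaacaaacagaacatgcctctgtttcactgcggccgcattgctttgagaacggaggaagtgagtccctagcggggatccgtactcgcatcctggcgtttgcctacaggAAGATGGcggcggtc
Ndufs6: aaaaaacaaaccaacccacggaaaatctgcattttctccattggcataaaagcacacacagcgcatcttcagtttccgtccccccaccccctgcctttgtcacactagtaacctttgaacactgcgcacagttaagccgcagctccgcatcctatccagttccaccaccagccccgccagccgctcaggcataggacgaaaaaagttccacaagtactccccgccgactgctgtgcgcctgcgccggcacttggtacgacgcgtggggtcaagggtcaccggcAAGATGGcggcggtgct
The searched letters lay just after the start site in all 5 windows. In Ndufaf5 (promoter at chr2:140170396-140170695, plus strand) CGCATGC began at base 18 after the start site and, read on the other strand, at base 19. AAGATGG began at base 30 in Ndufa9 (chr6:126849095-126849394, minus strand), at base 36 in Ndufs4 (chr13:114388045-114388344, minus strand) and at base 34 in Ndufs6 (chr13:73328433-73328732, minus strand). In Ndufs8 (chr19:3912725-3913024, minus strand) the ETS letters lay on the other strand, from base 16. Over the 40 members with a window, AAGATGG was found in 7 of 32 structural subunits (21.9%), against 9.0% of the 7359 promoters of genes tested and 7.28% of all 27025 promoters. It was also in 1 of 7 assembly factors (14.3%). Of the subunits with a window, it was in 6 of the 18 lower and in 1 of the 14 not called. For the NRF1-type letters these counts were 1 of 18 and 2 of 14, for the ETS letters 2 of 18 and 2 of 14, and for the receptor half-site 0 of 18 and 3 of 14, and none of these splits was tested. CGCATGC was found in 3 of 32 subunits (9.38%) and in 2 of 7 assembly factors, against 7.69% of promoters of genes tested and 4.01% of all promoters. CCGGAAG was found in 4 of 32 subunits (12.5%) and likewise in 2 of 7 assembly factors, against 22.1% and 9.93%. AAGGTCA was found in 3 of 32 (9.38%) and in 0 of 7 assembly factors, against 3.9% and 5.38%. These are matches of letters and not shown sites.

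Total counts of the WT libraries lay between 2374079 and 2615009, and those of the db/db libraries between 2382722 and 3240074. Subunits other than Ndufs5 held 362 to 7847 counts in each library and assembly factors 21 to 298, so the assembly factors were measured with the larger counting error. The labels name both BAT and a stromal vascular fraction, which lacks mature adipocytes, yet the brown adipocyte genes Ucp1 (2006, 2339, 1892 and 2754 CPM in WT and 1056, 1544, 1088 and 2027 CPM in db/db) and Cidea (4624, 3975, 4038 and 4787 CPM and 1254, 1789, 1931 and 2380.4 CPM) were high in all 8. The libraries thus held adipocyte RNA in both groups. The libraries differed in more than complex I. The summed level of 10 brown adipocyte markers was 9624 to 11490 CPM in WT against 4520 to 7915 CPM in db/db, and 6 of the 7 tested were lower and 1, Fabp3, higher. Of the 18 skeletal muscle markers 17 were higher in db/db, and their sum was 467 to 1706 CPM in WT against 2486 to 12350 CPM in db/db. Macrophage markers were higher for 10 of 12 (171 to 234 CPM against 805 to 1425 CPM), fibroblast markers for 7 of 7 (498 to 634 CPM against 1033 to 2137 CPM) and white adipocyte markers for 3 of the 4 tested (98.3 to 272 CPM against 1248 to 1371 CPM), while 2 of 7 endothelial markers were lower (389 to 445 CPM against 285 to 334 CPM). The macrophage markers not called were Ptprc (log2 fold change 1.16, adjusted p = 0.0625 in edgeR) and, in the other direction, Cd14 (-1.03, adjusted p = 0.0997). Of all genes tested, 15.8% were called higher and 11.9% lower. Among defining markers, Hoxc9 and Hoxc10 were at 0 in WT, Hoxc10 also in db/db, and Cpt1b was at 0 in db/db. None of these genes passed the filter on low counts, so no difference between the groups was tested for them. The library db/db 1 stood apart, with the highest muscle, macrophage and fibroblast sums and the lowest brown adipocyte sum of the 8. In tissue RNA, fewer cells of a type and less RNA per cell cannot be told apart.

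Transcripts of many complex I subunits were lower in BAT of db/db mice. Of the 36 structural subunits, 20 fell (55.6%) and 0 rose at an adjusted p under 0.05 in edgeR's quasi-likelihood test, where 11.9% of the 9264 genes tested were called lower and 15.8% higher. The falls ran from 21.6% to 39.4%. The log2 fold change of db/db relative to WT was below 0 for 35 of 36 subunits, against 49.6% of all genes tested, with a median of -0.40 for the subunits and 0.0066 for all genes. The 4 db/db libraries lay below all 4 WT libraries for 19 subunits, against 12.7% of all genes. Of the 8 Ndufaf genes, 1 rose and 0 fell, and their median was 0.04 (range -0.52 to 0.85). The 1 of 8 is 12.5%, below the share of all genes called higher, and is no result about the assembly factors as a group. At an unadjusted p under 0.05, 27 subunits and 1 assembly factor were lower, against 17.7% of all genes, and 1 assembly factor was higher, against 21.2% of all genes. The difference of the medians, -0.45, is a description, since genes of 1 complex are not replicates.

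The counts changed when single libraries were left out. With the muscle markers in the model, calls fell over all genes too, from 2568 to 647. Without db/db 1, 16 subunits remained lower, all of them among the 20, and the subunit median was -0.33. Leaving out WT 4 gave the smallest count, 13 of the 20, and leaving out WT 2 gave 14 lower subunits. Of these 20, 13 passed in all 8 fits that left out a library, Ndufa5, Ndufab1 and Ndufc2 in 6, Ndufa3 and Ndufb6 in 3, and Ndufa7 and Ndufa10 in 2. With the mean log2 CPM of the muscle markers as a covariate, 0 members passed in edgeR, where 1.92% of the 9264 genes tested were called lower. This 0 is near that share and is no result about the members. At an unadjusted p under 0.05 there were 4, which were Ndufa9, Ndufs4, Ndufs6 and Ndufa4l2. In this fit 30 of 36 subunits were still below 0 and the median of the 36 was -0.21. The log2 fold changes of the 20 lower subunits were then -0.53 (Ndufa9) to -0.15, all nearer to 0 than without the covariate. They came to between 31.2% (Ndufs7) and 93.4% (Ndufa6) of the values without it, with a median of 66.7%. Ndufaf5 was at 0.46 and Ndufa4l2 at 1.85. That score, 3.90 to 5.75 in WT against 5.91 to 8.29 in db/db, did not overlap, so that muscle RNA and genotype cannot be told apart in this fit.

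**Figure D1:**
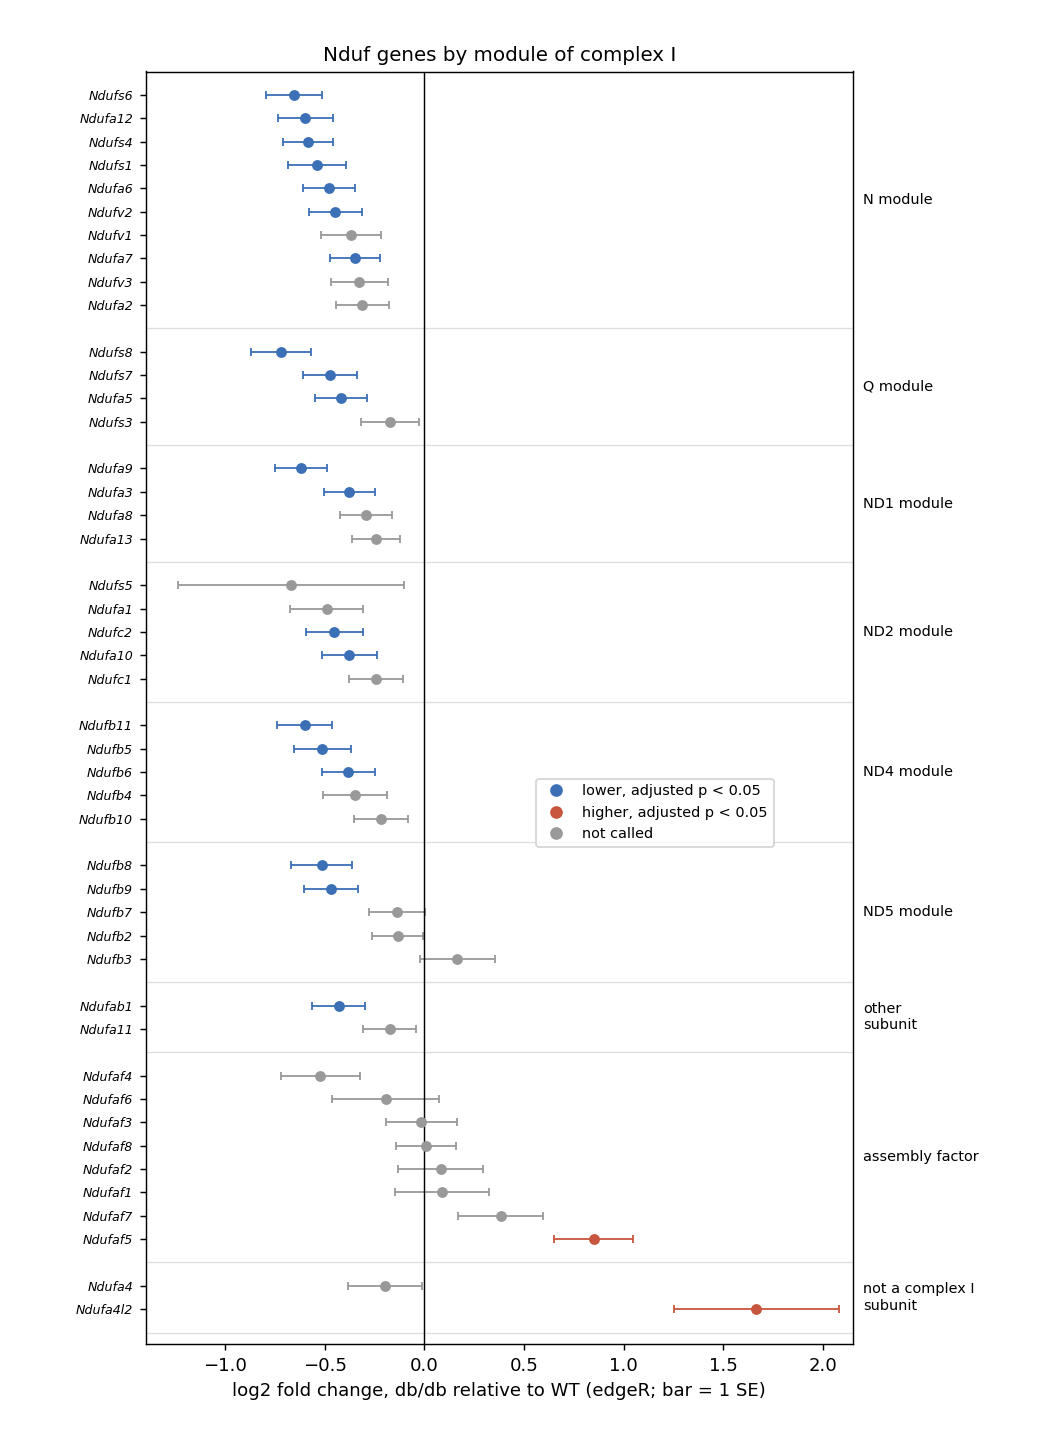
Log2 fold changes of Nduf genes, db/db relative to WT (x axis, bars of 1 SE), by module of the enzyme (y axis), with genes past an adjusted p of 0.05 in colour. The 20 blue points are all structural subunits, the red points are Ndufaf5 and Ndufa4l2, and Ndufb3 is the 1 subunit above 0. With the muscle score as a covariate no point would be coloured, and in that fit 1.92% of all genes tested were called lower.

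Over all genes tested 11.9% were called lower, a share to set beside each count by module, arm or kind of subunit below. Differences between modules, arms or kinds of subunit were not tested. The N module, which takes electrons from NADH, had the largest share of lower genes, 7 of 10, with a median log2 fold change of -0.46. Its core subunits are Ndufv1, which binds NADH and flavin, and the iron-sulfur proteins Ndufv2 and Ndufs1. The level of Ndufs1 was 531, 524, 429 and 493 CPM in the WT libraries and 257, 377, 351 and 376 CPM in the db/db libraries. Averaged, Ndufs1 was 494 ± 46.3 CPM in WT against 340.2 ± 57.0 CPM in db/db (SD, n = 4), a fall by 0.54 ± 0.14 (SE) on the log2 scale with an adjusted p of 0.00907 in edgeR. Ndufs1 is the largest of the core subunits, and Ndufv2 sits beside the flavin site. In WT, Ndufv2 stood at 533, 590.4, 567 and 568 CPM, and in db/db at 341, 473, 397 and 445 CPM. Its mean was 564 ± 23.9 CPM in WT against 414 ± 57.8 CPM in db/db, a fall by 0.45 ± 0.13 (SE) on the log2 scale with an adjusted p of 0.0165 in edgeR. For both genes every db/db library lay below every WT library, with db/db 1 the lowest. Ndufv1 had 1152, 1142, 937 and 1072 CPM in WT and 613, 828, 897 and 994 CPM in db/db. The groups overlapped in this gene, and the log2 fold change of -0.37 ± 0.15 (SE) with an adjusted p of 0.0783 in edgeR missed the threshold, which Ndufv1 passed in DESeq2 (adjusted p = 0.0407), with library totals only (0.0288), when every gene with a count was tested (0.0378) and without db/db 4 (0.0362).

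Among the supernumerary subunits of the N module, the zinc-binding Ndufs6 had the largest fall. Ndufs6 measured 669, 744, 594 and 669.8 CPM in WT 1 to 4 and 337, 419.6, 500.0 and 443 CPM in db/db 1 to 4. The means of Ndufs6 were 669 ± 61.4 CPM in WT against 425 ± 67.5 CPM in db/db, a fall by 0.66 ± 0.14 (SE) on the log2 scale with an adjusted p of 0.00187 in edgeR. Ndufa12, which is related in sequence to the assembly factor Ndufaf2, followed. The level of Ndufa12 was 459, 430.1, 387 and 454 CPM in the WT libraries and 228, 280.0, 297 and 338 CPM in the db/db libraries. For Ndufa12 the means were 433 ± 32.7 CPM in WT against 286 ± 45.6 CPM in db/db, a fall by 0.60 ± 0.14 (SE) on the log2 scale with an adjusted p of 0.00331 in edgeR. Neither gene overlapped between the groups, and db/db 1 was the lowest in both. Ndufs4 is a subunit whose loss causes a Leigh syndrome-like disease in mice. In WT, Ndufs4 stood at 377, 425, 418 and 417 CPM, and in db/db at 237, 286, 273 and 295 CPM. Mean Ndufs4 was 409 ± 21.8 CPM in WT against 273 ± 25.2 CPM in db/db, a fall by 0.58 ± 0.12 (SE) on the log2 scale with an adjusted p of 0.0017 in edgeR. The WT libraries of Ndufs4 lay close together except for a lower WT 1, and no db/db library reached them. Ndufa6 is a small protein of the LYR family that holds the acyl carrier protein in the arm. Ndufa6 had 866, 999.8, 1033 and 1040.4 CPM in WT and 615, 666, 779 and 767 CPM in db/db. Averaged, Ndufa6 was 985 ± 81.1 CPM in WT against 707 ± 79.8 CPM in db/db (SD, n = 4), a fall by 0.48 ± 0.13 (SE) on the log2 scale with an adjusted p of 0.0111 in edgeR. The WT libraries of Ndufa6 were all above the db/db libraries. Ndufa7 measured 443, 512, 486 and 474 CPM in WT 1 to 4 and 329.7, 363, 424 and 385 CPM in db/db 1 to 4. Its mean was 479 ± 28.4 CPM in WT against 375 ± 39.4 CPM in db/db, a fall by 0.35 ± 0.13 (SE) on the log2 scale with an adjusted p of 0.0451 in edgeR. Ndufa7 did not overlap between the groups. Ndufa2 and Ndufv3 were not called (adjusted p of 0.0923 and 0.0957 in edgeR).

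In the Q module, where ubiquinone is reduced, 3 of 5 genes were lower, with a median of -0.42. Ndufs8, a core iron-sulfur subunit, had the largest fall of all called members. The level of Ndufs8 was 376, 466, 358 and 413 CPM in the WT libraries and 191, 237, 239 and 312 CPM in the db/db libraries. The means of Ndufs8 were 404 ± 47.8 CPM in WT against 245 ± 50.0 CPM in db/db, a fall by 0.72 ± 0.15 (SE) on the log2 scale with an adjusted p of 0.00165 in edgeR. The highest db/db library, db/db 4, stayed under the lowest WT library. Ndufs7 carries the cluster that hands electrons to ubiquinone. In WT, Ndufs7 stood at 567, 537, 504 and 512 CPM, and in db/db at 303, 394, 389.6 and 441 CPM. For Ndufs7 the means were 529.9 ± 28.1 CPM in WT against 382 ± 57.7 CPM in db/db, a fall by 0.47 ± 0.13 (SE) on the log2 scale with an adjusted p of 0.0138 in edgeR. Ndufa5 is a small supernumerary subunit bound to the Q module. Ndufa5 had 1272, 1232, 1166 and 1243 CPM in WT and 765, 904, 974 and 1031 CPM in db/db. Mean Ndufa5 was 1228 ± 44.8 CPM in WT against 919 ± 115 CPM in db/db, a fall by 0.42 ± 0.13 (SE) on the log2 scale with an adjusted p of 0.0226 in edgeR. In these genes too, the groups were apart, and in each db/db 1 was lowest and db/db 4 highest. Ndufs3, a core subunit that enters early in assembly, was not called. Ndufs3 measured 223, 207, 188 and 194 CPM in WT 1 to 4 and 142, 225, 160.5 and 191 CPM in db/db 1 to 4. Averaged, Ndufs3 was 203 ± 15.6 CPM in WT against 179.7 ± 36.6 CPM in db/db (SD, n = 4), with a log2 fold change of -0.17 ± 0.15 (SE) and an adjusted p of 0.419 in edgeR. Its groups overlapped, and db/db 2 was the highest of all 8 libraries. Over the 7 nuclear core subunits 4 were lower (median -0.45) and over the 29 supernumerary subunits 16 (median -0.38), so the shares called were close to each other.

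**Figure D2:**
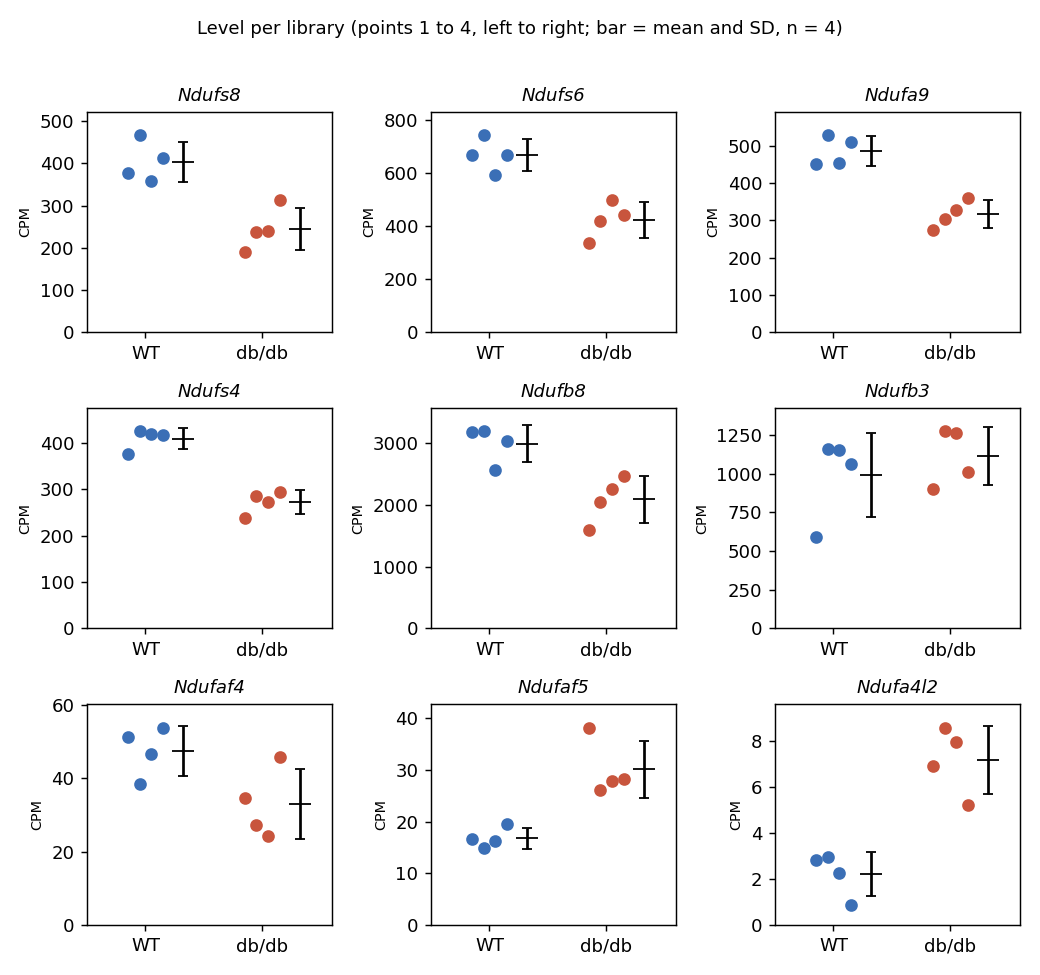
Levels of 9 Nduf genes in each library (y axis, CPM from 0, range set per gene, points 1 to 4 from left to right, bars for mean and SD of 4 libraries), WT in blue and db/db in red. Ndufs8, Ndufs6, Ndufa9, Ndufs4 and Ndufb8 are apart and lower in db/db, Ndufaf5 and Ndufa4l2 are apart and higher, and Ndufb3 and Ndufaf4 overlap.

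The membrane arm had 9 of 19 genes lower and a median of -0.38, against 10 of 15 and -0.45 in the matrix arm. Ndufa9, which sits at the junction of the arms in the ND1 module, was its most clearly lower member by p-value. The level of Ndufa9 was 452, 528, 453 and 510.2 CPM in the WT libraries and 273, 304, 327 and 361 CPM in the db/db libraries. Its mean was 486 ± 39.3 CPM in WT against 316 ± 36.9 CPM in db/db, a fall by 0.62 ± 0.13 (SE) on the log2 scale with an adjusted p of 0.0016 in edgeR. The db/db libraries of Ndufa9 lay clearly under the WT libraries. In WT, Ndufa3 stood at 822, 848, 794 and 773 CPM, and in db/db at 544, 582, 655 and 711 CPM. The means of Ndufa3 were 809 ± 32.8 CPM in WT against 623 ± 74.6 CPM in db/db, a fall by 0.38 ± 0.13 (SE) on the log2 scale with an adjusted p of 0.0347 in edgeR. Ndufa13, of the same module, had no overlap between the groups (514 to 604 CPM in db/db, 649 to 735 CPM in WT) but an adjusted p of 0.148 in edgeR, and the ND1 module had 2 of 4 genes lower. In the ND2 module 2 of 5 were lower, with a median of -0.45, close to the -0.46 of the N module. Ndufc2 had 573, 617, 534 and 612 CPM in WT and 317, 469.9, 450.4 and 469 CPM in db/db. For Ndufc2 the means were 584 ± 38.9 CPM in WT against 427 ± 73.8 CPM in db/db, a fall by 0.45 ± 0.14 (SE) on the log2 scale with an adjusted p of 0.0237 in edgeR. In Ndufc2 db/db 1 was far under the other db/db libraries, and all 4 were under WT. Ndufa10 is a subunit with a nucleoside kinase fold. Ndufa10 measured 1320.1, 1472, 1153 and 1289 CPM in WT 1 to 4 and 849, 961, 1061 and 1160.3 CPM in db/db 1 to 4. Mean Ndufa10 was 1309 ± 131 CPM in WT against 1008 ± 133 CPM in db/db, a fall by 0.38 ± 0.14 (SE) on the log2 scale with an adjusted p of 0.0496 in edgeR. Ndufa10 overlapped between the groups by 1 pair of libraries, WT 3 and db/db 4. Ndufs5 held 1 to 16 counts per library, and its transcript shares 319 bases with the gene BC002163, so its value is uncertain.

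In the ND4 module 3 of 5 genes were lower. The level of Ndufb11 was 587, 679.9, 670.4 and 675 CPM in the WT libraries and 356, 434, 414 and 516 CPM in the db/db libraries. Averaged, Ndufb11 was 653 ± 44.4 CPM in WT against 430.3 ± 66.2 CPM in db/db (SD, n = 4), a fall by 0.60 ± 0.14 (SE) on the log2 scale with an adjusted p of 0.00282 in edgeR. Every db/db library of Ndufb11 was under every WT library. In WT, Ndufb5 stood at 928, 1077, 968 and 1120.2 CPM, and in db/db at 561, 687, 777 and 843 CPM. Its mean was 1023 ± 90.3 CPM in WT against 717 ± 122 CPM in db/db, a fall by 0.51 ± 0.14 (SE) on the log2 scale with an adjusted p of 0.0124 in edgeR. Ndufb5 was likewise apart between the groups. Ndufb6 had 381, 485, 434 and 456 CPM in WT and 287, 381, 322 and 357 CPM in db/db. The means of Ndufb6 were 439 ± 43.9 CPM in WT against 337 ± 41.4 CPM in db/db, a fall by 0.38 ± 0.13 (SE) on the log2 scale with an adjusted p of 0.0399 in edgeR. Ndufb6 overlapped at the edge, with db/db 2 at the level of WT 1. The ND5 module had 2 of 5 lower and the median nearest to 0, -0.14. Ndufb8 measured 3176, 3183, 2556 and 3023 CPM in WT 1 to 4 and 1586, 2035, 2255 and 2469 CPM in db/db 1 to 4. For Ndufb8 the means were 2984 ± 295 CPM in WT against 2086 ± 378 CPM in db/db, a fall by 0.52 ± 0.15 (SE) on the log2 scale with an adjusted p of 0.0171 in edgeR. The lowest WT library of Ndufb8, WT 3, was just above the highest of db/db. The level of Ndufb9 was 1490.4, 1629.9, 1391 and 1600.2 CPM in the WT libraries and 942, 1019, 1171 and 1286 CPM in the db/db libraries. Mean Ndufb9 was 1528 ± 109 CPM in WT against 1105 ± 154 CPM in db/db, a fall by 0.47 ± 0.14 (SE) on the log2 scale with an adjusted p of 0.0155 in edgeR. The groups of Ndufb9 were apart as well. Ndufb3, Ndufb2 and Ndufb7, the other members of this module, were not called. In WT, Ndufb3 stood at 593, 1157, 1154 and 1065 CPM, and in db/db at 899, 1273, 1266 and 1013 CPM. Averaged, Ndufb3 was 992 ± 269.5 CPM in WT against 1112 ± 187 CPM in db/db (SD, n = 4), with a log2 fold change of 0.17 ± 0.19 (SE) and an adjusted p of 0.561 in edgeR. Ndufb3 was the 1 subunit with a value above 0, and without its low library WT 1 all 36 subunits were below 0. Ndufab1, the mitochondrial acyl carrier protein, is present in the matrix arm and in the membrane arm. Ndufab1 had 386, 459.6, 428 and 498 CPM in WT and 276, 334, 326 and 378 CPM in db/db. Its mean was 443 ± 47.7 CPM in WT against 328 ± 41.6 CPM in db/db, a fall by 0.43 ± 0.13 (SE) on the log2 scale with an adjusted p of 0.0232 in edgeR. Ndufa11 was not called (adjusted p = 0.365 in edgeR).

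The 16 subunits that were not called ranged from -0.67 (Ndufs5) to 0.17 (Ndufb3), with adjusted p-values between 0.0537 and 0.561 in edgeR, and 7 of them had an unadjusted p under 0.05. Ndufa1 was nearest to the threshold (log2 fold change -0.49 ± 0.18, adjusted p = 0.0537). It was called lower in DESeq2, limma-voom, with RLE or upper quartile factors, with library totals only, with factors set without mitochondrially encoded genes, when every gene with a count was tested, with the replicate block, and without WT 1 or db/db 2. Ndufa2 and Ndufv3 were called in DESeq2, with library totals only and without db/db 4, Ndufa13 in DESeq2, Ndufa8 with library totals only and Ndufb4 without db/db 2. Failing the threshold does not show that these genes were the same in both groups.

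The assembly factors gave a mixed picture, with 3 below and 5 above 0. Ndufaf5, which hydroxylates Ndufs7 early in assembly, was the 1 that rose. Ndufaf5 measured 16.6, 14.8, 16.2 and 19.5 CPM in WT 1 to 4 and 38.2, 26.1, 27.9 and 28.3 CPM in db/db 1 to 4. The means of Ndufaf5 were 16.8 ± 2.0 CPM in WT against 30.1 ± 5.47 CPM in db/db, a rise of 0.85 ± 0.20 (SE) on the log2 scale with an adjusted p of 0.0037 in edgeR. All 4 db/db libraries lay above all 4 WT libraries, with db/db 1 the highest. The raw counts were 35 to 46 in WT and 63 to 127 in db/db. Its substrate Ndufs7 moved the other way, as given above. Ndufaf8, the partner that stabilises Ndufaf5, was not called. The level of Ndufaf8 was 88.6, 81.0, 96.9 and 93.8 CPM in the WT libraries and 82.1, 71.3, 99.3 and 111 CPM in the db/db libraries. For Ndufaf8 the means were 90.1 ± 6.95 CPM in WT against 90.9 ± 17.6 CPM in db/db, with a log2 fold change of 0.009 ± 0.15 (SE) and an adjusted p of 0.973 in edgeR. Ndufaf7 is a methyltransferase of the mitochondrial matrix that acts early in assembly. In WT, Ndufaf7 stood at 13.4, 15.2, 13.9 and 14.9 CPM, and in db/db at 17.7, 22.9, 15.5 and 18.2 CPM. Mean Ndufaf7 was 14.3 ± 0.848 CPM in WT against 18.6 ± 3.11 CPM in db/db, with a log2 fold change of 0.38 ± 0.21 (SE) and an adjusted p of 0.2 in edgeR. Its groups did not overlap, but the difference missed the threshold.

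Ndufaf3 and Ndufaf4 act together on the early Q module. Ndufaf3 had 35.6, 43.5, 26.7 and 42.0 CPM in WT and 34.6, 34.4, 39.9 and 37.2 CPM in db/db. Averaged, Ndufaf3 was 36.9 ± 7.65 CPM in WT against 36.5 ± 2.6 CPM in db/db (SD, n = 4), with a log2 fold change of -0.017 ± 0.18 (SE) and an adjusted p of 0.957 in edgeR. The db/db libraries of Ndufaf3 lay within the range of WT. Ndufaf4 measured 51.4, 38.4, 46.6 and 53.9 CPM in WT 1 to 4 and 34.6, 27.4, 24.4 and 45.8 CPM in db/db 1 to 4. Its mean was 47.6 ± 6.82 CPM in WT against 33.0 ± 9.51 CPM in db/db, with a log2 fold change of -0.52 ± 0.20 (SE) and an adjusted p of 0.057 in edgeR. Ndufaf4 had the lowest fold change of the 8 assembly factors and close to the threshold, which it crossed in limma-voom, with upper quartile factors, when every gene with a count was tested, with the replicate block, and without WT 2 or db/db 4. Ndufaf1 belongs to the complex that builds the ND2 module. The level of Ndufaf1 was 18.6, 22.4, 10.9 and 17.4 CPM in the WT libraries and 16.5, 16.2, 21.7 and 19.3 CPM in the db/db libraries. The means of Ndufaf1 were 17.3 ± 4.78 CPM in WT against 18.5 ± 2.59 CPM in db/db, with a log2 fold change of 0.089 ± 0.24 (SE) and an adjusted p of 0.822 in edgeR. Ndufaf2 holds the place of Ndufa12 until late in assembly. In WT, Ndufaf2 stood at 29.9, 27.0, 24.8 and 23.8 CPM, and in db/db at 24.1, 38.8, 19.1 and 29.0 CPM. For Ndufaf2 the means were 26.4 ± 2.73 CPM in WT against 27.7 ± 8.43 CPM in db/db, with a log2 fold change of 0.081 ± 0.21 (SE) and an adjusted p of 0.82 in edgeR. Ndufaf6 has a part in the early steps. Ndufaf6 had 10.9, 16.9, 10.1 and 13.2 CPM in WT and 11.4, 8.91, 9.31 and 14.9 CPM in db/db. Mean Ndufaf6 was 12.8 ± 3.02 CPM in WT against 11.1 ± 2.73 CPM in db/db, with a log2 fold change of -0.19 ± 0.27 (SE) and an adjusted p of 0.64 in edgeR. In all of these the groups overlapped, and the standard errors of the 8 assembly factors were 0.15 to 0.27 on the log2 scale, against 0.12 to 0.15 for the 20 lower subunits.

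Ndufa4, assigned today to cytochrome c oxidase (complex IV), was not called. Ndufa4 measured 339.5, 574, 625 and 557 CPM in WT 1 to 4 and 319, 552, 491 and 466 CPM in db/db 1 to 4. Averaged, Ndufa4 was 524 ± 126 CPM in WT against 457 ± 98.6 CPM in db/db (SD, n = 4), with a log2 fold change of -0.20 ± 0.19 (SE) and an adjusted p of 0.473 in edgeR. Its paralogue Ndufa4l2, known as a hypoxia-inducible gene, rose. The level of Ndufa4l2 was 2.83, 2.95, 2.25 and 0.849 CPM in the WT libraries and 6.92, 8.59, 7.98 and 5.21 CPM in the db/db libraries. Its mean was 2.22 ± 0.965 CPM in WT against 7.17 ± 1.48 CPM in db/db, a rise of 1.67 ± 0.41 (SE) on the log2 scale with an adjusted p of 0.00574 in edgeR. The groups did not overlap, but the level was low in both, with 2 to 7 counts in WT and 14 to 27 in db/db.

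Taking the libraries one by one, the median log2 ratio of the 36 subunits to their WT mean lay between -0.09 and 0.08 in the WT libraries and at -0.68, -0.39, -0.36 and -0.25 in db/db 1 to 4. In these db/db libraries 36, 33, 35 and 33 of the 36 subunits were below the WT mean. The library db/db 1 was the lowest of all 8 for 33 of 36 subunits, and db/db 4 was the highest of the db/db libraries for 23. The summed brown adipocyte markers in db/db 1 to 4 were 4520, 6496, 6491 and 7915 CPM and the muscle markers 12350, 3394, 5535 and 2486 CPM, so that db/db 1 and db/db 4 were at the ends of all 3 measures, and the part of either cell type in the subunit levels was not tested. The medians of the assembly factors in the same libraries were -0.11, -0.10, 0.11 and 0.18, against -0.07 to 0.06 in the WT libraries.

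**Figure D3:**
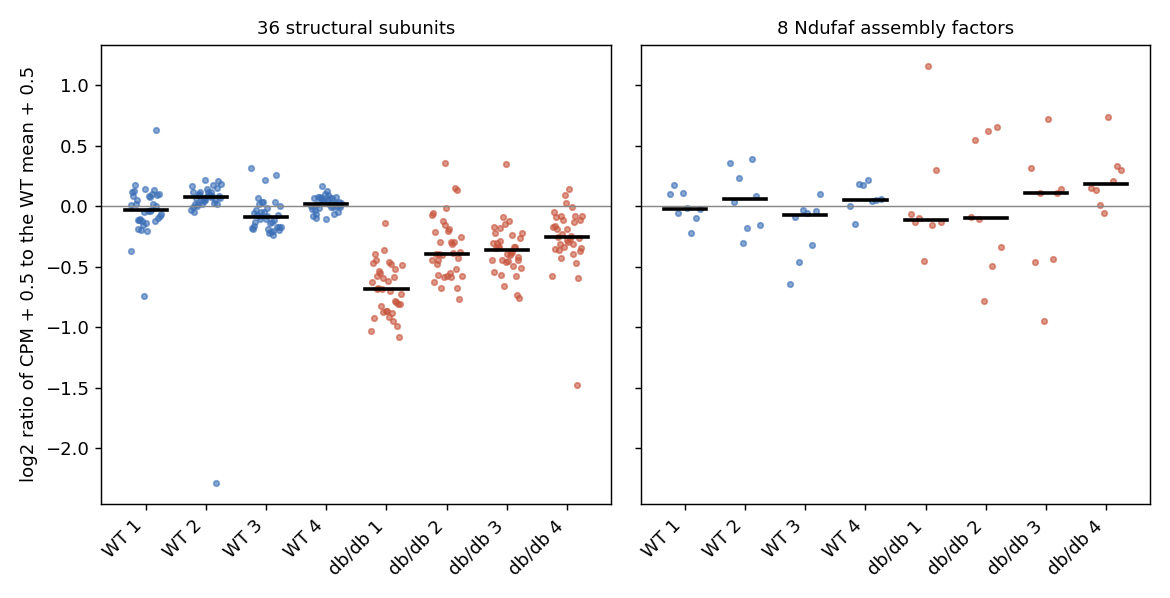
Log2 ratio of each gene's level to its WT mean (y axis, CPM with 0.5 added), per library (x axis), for the 36 structural subunits and the 8 Ndufaf genes, with black bars for medians. The subunit medians of the db/db libraries, -0.68 to -0.25, are below those of all WT libraries, and db/db 1 is lowest, while the medians of the assembly factors in db/db run from -0.11 to 0.18.

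Summed over the 36 subunits, 3.90% ± 0.156 of the counts of genes not encoded by mitochondrial DNA fell on complex I in WT, against 3.02% ± 0.354 in db/db (SD over 4 libraries of each group). The ranges, 3.70% to 4.08% and 2.52% to 3.35%, did not overlap. The 8 assembly factors took 0.0394% ± 0.0019 in WT, against 0.0406% ± 0.0034 in db/db, with overlap. There were thus 99.3 ± 5.19 subunit counts for each assembly factor count in WT, against 74.6 ± 8.65 in db/db, with ranges of 94.9 to 107 and 62.7 to 81.3.

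The 7 core subunits of the membrane arm are encoded by mitochondrial DNA (mt-Nd genes), and 0 of the 6 tested in edgeR were called lower (also 0 of 7 in DESeq2), where 11.9% of all genes were. At an unadjusted p under 0.05 there was 1 lower gene, mt-Nd3 (log2 fold change -0.54 ± 0.24, adjusted p = 0.0964 in edgeR). In edgeR 1 of the 6, mt-Nd5, was higher (16.7%, against 15.8% of all genes called higher), and the median log2 fold change of the 6 was 0.0060. With so few genes these counts are near the shares over all genes and are no result about the mt-Nd genes as a group. In WT, mt-Nd5 stood at 2738, 3198, 3092 and 3116 CPM, and in db/db at 4090.1, 5612, 4666 and 5075 CPM. The means of mt-Nd5 were 3036 ± 204 CPM in WT against 4861 ± 644 CPM in db/db, a rise of 0.68 ± 0.14 (SE) on the log2 scale with an adjusted p of 0.0015 in edgeR. All db/db libraries were above all WT libraries in this gene, and with the muscle score as a covariate it was still called (0.82, adjusted p = 0.0453 in edgeR). The mt-Nd genes gave 10.1 ± 0.319 counts for each nuclear subunit count in WT, against 14.8 ± 0.546 in db/db (SD over 4 libraries of each group). The ranges were 9.75 to 10.5 and 14.3 to 15.3, without overlap. Most of the mt-Nd counts came from mt-Nd4, with means of 199394 CPM in WT and 229109 CPM in db/db. The next gene, mt-Nd1, had 32028 and 30308 CPM. As mt-Nd4 was not called (log2 fold change 0.20 ± 0.19, adjusted p = 0.476 in edgeR), the ratio mostly sets that gene against the lower nuclear subunits. Transcripts of mitochondrial DNA are read here in libraries made from mRNA, so this ratio compares libraries and is not a ratio of molecules.

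**Figure D4:**
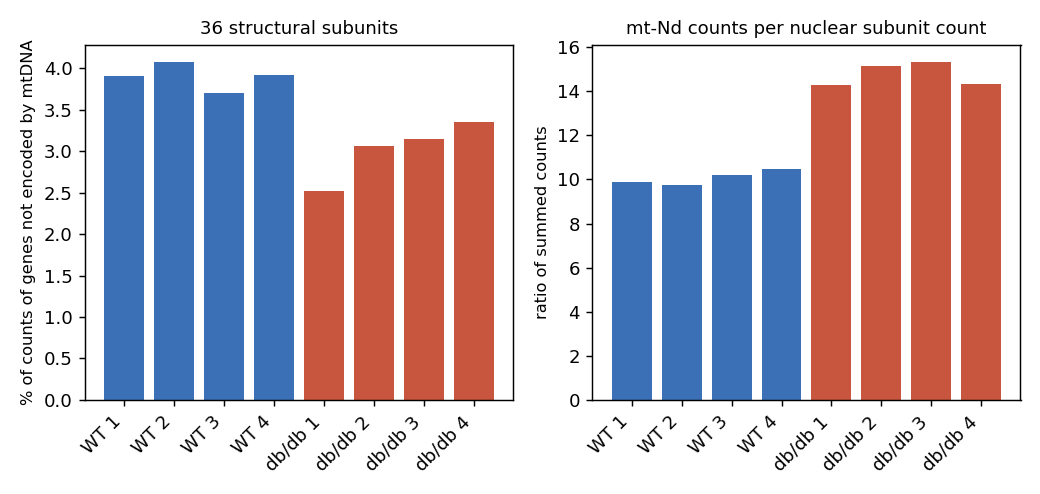
Left, percent of the counts of genes not encoded by mitochondrial DNA that fell on the 36 nuclear subunits, and right, summed mt-Nd counts per nuclear subunit count, with bars for single libraries, WT in blue and db/db in red. The db/db libraries are all lower on the left (2.52% to 3.35% against 3.70% to 4.08%) and all higher on the right (14.3 to 15.3 against 9.75 to 10.5).

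Assembly factors of complex I without the Nduf name were called at about the rate of all genes. Of 14 listed, 11 were tested, of which Aifm1 and Dmac2 were lower and Tmem126a was higher (27.3%, against 27.7% of all genes called in either direction). Aifm1 had 97.9, 141, 109 and 119.7 CPM in WT and 55.4, 80.2, 69.6 and 66.6 CPM in db/db. For Aifm1 the means were 117 ± 18.2 CPM in WT against 67.9 ± 10.2 CPM in db/db, a fall by 0.78 ± 0.15 (SE) on the log2 scale with an adjusted p of 0.000898 in edgeR. Aifm1 supports the import of proteins that respiratory complexes need, and its groups did not overlap. Dmac2 fell by 0.66 on the log2 scale (SE 0.24, adjusted p = 0.0483 in edgeR) and overlapped between the groups, and Tmem126a rose by 0.56 (SE 0.17, adjusted p = 0.0194). Ecsit and Tmem126b, which work with Ndufaf1, were not called.

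Nuclear subunits of the other respiratory complexes were also lower. Of the 40 tested nuclear subunits of complexes II to V, 20 were lower (50%, against 11.9% of all genes) and 3 higher (15.8% of all genes were called higher), with a median of -0.38 against -0.40 for complex I. The lower genes were 2 of 4 in complex II, 6 of 9 in complex III, 7 of 13 in complex IV and 5 of 14 in complex V. Cox7a1 and Cox8b of complex IV are also on the list of brown adipocyte markers. The lowest p-values among lower genes were those of Cox6a1 (log2 fold change -0.82 ± 0.14, adjusted p = 0.00031), Atp5j2 (-0.79 ± 0.14, adjusted p = 0.00041) and Uqcr10 (-0.81 ± 0.15, adjusted p = 0.00052, all in edgeR), each without overlap between the groups. The 3 higher genes were Cox6a2, Atp5g1 and Atp5g3. Cox6a2 is the form of a complex IV subunit found in heart and skeletal muscle, and Cox6a1 is its form in most other tissues. Cox6a2 measured 8.5, 23.2, 14.7 and 43.3 CPM in WT 1 to 4 and 520.4, 113, 269.9 and 118 CPM in db/db 1 to 4. Mean Cox6a2 was 22.4 ± 15.2 CPM in WT against 255 ± 191 CPM in db/db, a rise of 3.52 ± 0.47 (SE) on the log2 scale with an adjusted p of 3.01e-05 in edgeR. Its level was highest in db/db 1, the library with the highest muscle sum. Atp5g1 and Atp5g3 encode the c subunit of the ATP synthase. The level of Atp5g1 was 14.6, 14.3, 13.5 and 30.6 CPM in the WT libraries and 153, 64.3, 70.9 and 58.4 CPM in the db/db libraries. Averaged, Atp5g1 was 18.3 ± 8.22 CPM in WT against 86.6 ± 44.4 CPM in db/db (SD, n = 4), a rise of 2.26 ± 0.31 (SE) on the log2 scale with an adjusted p of 3.88e-05 in edgeR. Here too db/db 1 was the highest. With the muscle score as a covariate Cox6a2 was still higher (1.19, adjusted p = 0.00633 in edgeR), while Atp5g1 (0.94, adjusted p = 0.0667), Cox6a1 (-0.59, adjusted p = 0.161), Atp5j2 (-0.50, adjusted p = 0.224), Uqcr10 (-0.59, adjusted p = 0.166) and Aifm1 (-0.73, adjusted p = 0.107) were not called.

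Some members could not be counted apart from other genes with certainty. Exons of 19 of the 46 share bases with another annotated gene, mostly on the other strand, and no source used here says if reads were counted by strand. Among the lower subunits these are Ndufa3, Ndufa9, Ndufab1, Ndufb5, Ndufb6, Ndufb8, Ndufb9, Ndufb11, Ndufs1 and Ndufs6, and Ndufa4l2 overlaps Shmt2. Transcripts of 9 members share at least 75 bases at 98% identity or more with another gene, among them Ndufa12 (402 bases with Gm15920), Ndufab1 (469 bases) and Ndufs3 (792 bases with Gm12251). The values of these genes are uncertain to that extent. The 22 members free of both include Ndufs4, Ndufs7, Ndufs8, Ndufv1, Ndufv2 and Ndufaf5.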

How the data were processed

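Bulk RNA-seq libraries of BAT from 4 WT and 4 db/db mice were grouped by the genotype in their titles. The authors deposited raw counts per Ensembl gene, which were used here, and normalized values, which were not. The study's methods name bbduk, STAR on mm10 and HTSeq-count, whereas the submitters' processing notes name Trimmomatic, HISAT2 and DESeq2. The strand setting and any collapsing of molecular identifiers are not given in the sources used here, so PCR copies may be counted and counting error is a lower limit.

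Identifiers were matched to GENCODE M21 (30934 of 31053 genes), and promoters came from RefSeq. Genes were filtered with filterByExpr (minimum count 10, minimum total 15), scaled by TMM and tested in R 4.3.3 by edgeR 4.0.16 (quasi-likelihood), the model holding genotype alone, with Benjamini-Hochberg adjustment over 9264 genes at 0.05. CPM values use the filtered total times the TMM factor. SEs were derived from the F statistic, and fold changes are log2 of db/db over WT. The test was also run on simulated data in which genes vary independently. The outcome is not given here, so that run adds no support to the calls.

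The members, modules, marker lists and named genes were chosen with earlier results of these data known. Values per library are given for members past the threshold, the core subunits, all Ndufaf genes, Ndufa4 and Ndufa4l2, and for at most 6 other pathway genes by smallest p, of which Dmac2, Tmem126a, mt-Nd5, Atp5g3, Ndufb3, Ndufa1, Ndufa2, Ndufa8, Ndufa13, Ndufb4 and Ndufv3 fall outside and were named after their values were seen. The values of 1 member enter the counts and medians but are not reported here. Libraries of 1 genotype differed by more than sampling noise (chi-square per degree of freedom at least 3.99). That the samples are separate animals comes from the study's methods. Transcripts were compared with BLAST+ 2.17.0, and figures drawn with matplotlib 3.10.9. DESeq2 1.42.0, limma-voom (limma 3.58.1), other scalings and filters, a muscle covariate, the replicate block and leaving out each library were the alternatives.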

Additional observations from a re-analysis of the deposited data

Results flagged for a closer look

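Of 116 sets of 4 libraries examined, 12 held 1 library that stood apart under Dixon's criterion, where chance gives about 5.8. Among the complex I genes, WT 1 was apart in Ndufb3 (592.9 CPM against 1065 to 1157 CPM), in Ndufb11 (586.8 CPM against 670.4 to 679.9 CPM), in Ndufs4 (376.8 CPM against 416.8 to 424.6 CPM) and, on the high side, in Ndufa13 (735.3 CPM against 649.3 to 661.7 CPM). The library db/db 1 was apart on the low side in Ndufb10 (274.1 CPM against 380.2 to 388.3 CPM) and in Ndufc2 (316.8 CPM against 450.4 to 469.9 CPM). It was also low in the share of counts from mitochondrial DNA (30.68% against 36.76% to 37.58%) and in the share from the mt-Nd genes (25% against 29.4% to 30.22%), and high in Atp5g1 (152.8 CPM against 58.4 to 70.92 CPM).

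In the other complexes, Atp5g1 was high in WT 4 (30.56 CPM against 13.53 to 14.57 CPM), Cox6a1 was low in WT 3 (4021 CPM against 4507 to 4563 CPM) and Uqcr10 was high in db/db 4 (1367 CPM against 940.7 to 968.5 CPM).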

How the results depend on the processing

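The 20 lower subunits were all lower under DESeq2 (26 complex I genes lower), limma-voom (22), RLE factors (21), upper quartile factors (22), library totals only (26), TMM without mitochondrially encoded genes (21) and a test of every gene with a count (23). Of these 20, 16 were lower among genes with at least 10 counts in every sample, where the higher genes were 1, Ndufa4l2 not being tested. The assembly factors called were 2, Ndufaf4 (lower) in addition to Ndufaf5, in limma-voom, with upper quartile factors, with every gene and with the block. With the muscle score as covariate, 0 were lower, 0 higher and 0 assembly factors called. In that fit 647 of all genes passed, and 1.92% of the genes tested were lower. The subunit median was -0.2113 and its difference from the assembly factors -0.3286, and Ndufs3 turned to 0.2098. Beside that fit, the subunit median ran from -0.4471 to -0.3325 over the other alternatives that kept all libraries.

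Replicate numbers do not pair the samples (correlations of deviations between -0.07813 and 0.04905, from different animals), and with the replicate block 22 complex I genes were lower. Leaving out 1 library gave 13 (without WT 4) to 23 (without db/db 4) lower genes, and 1 to 2 assembly factors called, the 2 without WT 2 and without db/db 4. Without WT 2 the lower genes were 15 and without db/db 1 16. Of the lower subunits, 13 passed in all 8 of these fits.

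Values near 0 changed sign. Ndufaf3 was 0.0055 in limma-voom and 0.034 with at least 10 counts in every sample, and -0.17 to 0.059 on leaving out a library, above 0 in 4 fits. Ndufaf8 was -0.024 in DESeq2, -0.015 in limma-voom, -0.00079 with RLE factors, -0.016 with upper quartile factors, -0.022 with library totals, -0.0051 without mitochondrially encoded genes, -0.036 with every gene, -0.0037 with the replicate block, and -0.10 to 0.11 on leaving out a library. On leaving out a library Ndufaf1 was -0.10 (without WT 3) to 0.22 and Ndufaf2 -0.13 (without db/db 2) to 0.21. The cause was not tested. Counts of the assembly factors were at most 298 per library, and the part of depth in their errors was not tested.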
